A study of Mus musculus with 12 samples.

Results

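The genes described here are the neurofilament genes and their closest neuronal relatives: Nefl, Nefm, Nefh, Ina and Prph. They were chosen by name, and all 5 were found, as 1 row each, among the 43346 annotated genes of the deposited gene tables. The 12 RNA-seq libraries came from 1 adult male mouse aged 14 months, a Castaneus X C57Bl6 hybrid of strain B6CASTF1/J. Per the labels, 13 Purkinje cells were excised and homogenised together, and 1 cell-equivalent of the RNA above 200 bases went into every library along with spike-in RNA. The libraries form 1 group, with no treatment or control, and are named here by their technical replicate numbers, 1 to 6 and 8 to 13. They are splits of 1 pool, so every p-value below measures technical spread and says nothing about variation between cells or animals.

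Neurofilaments are the intermediate filaments of neurons and fill large axons, whose diameter depends on them. The light subunit (Nefl) is needed for assembly, and the medium (Nefm) and heavy (Nefh) subunits carry long tails that project from the filament and are phosphorylated at Lys-Ser-Pro motifs. Alpha-internexin (Ina) assembles with them in central neurons, and peripherin (Prph) is best known from peripheral neurons and from central neurons with peripheral axons. Purkinje cell axons are the sole output of the cerebellar cortex.

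The tails set the subunits apart in sequence, and the stretches below show how the density of that motif differs between Nefh and Nefm. In the coding sequences of the GENCODE M21 transcripts (mm10), Nefh has 1090 codons, with 51 in-frame runs of Lys-Ser-Pro codons between codons 522 and 887. Nefm has 848 codons and 4 such runs, while Nefl (543 codons), Ina (501) and Prph (507) have none. Each window is the 50 codons, starting at such a run, that hold the most runs in that gene, the earliest in case of a tie. It is read 5′ to 3′ on the coding strand, with Lys-Ser-Pro codons in capitals. The Nefh window holds 8 runs (chr11:4940905-4941054, minus strand, exon 4 of 4, codons 522 to 571) and the Nefm window 2 (chr14:68120934-68121083, minus strand, exon 3 of 3, codons 501 to 550), where runs of Glu codons take up much of the rest.
Nefh: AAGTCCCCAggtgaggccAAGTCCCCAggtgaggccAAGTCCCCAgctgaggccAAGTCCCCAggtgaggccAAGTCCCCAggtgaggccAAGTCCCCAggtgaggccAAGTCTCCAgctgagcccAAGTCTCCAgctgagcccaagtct
Nefm: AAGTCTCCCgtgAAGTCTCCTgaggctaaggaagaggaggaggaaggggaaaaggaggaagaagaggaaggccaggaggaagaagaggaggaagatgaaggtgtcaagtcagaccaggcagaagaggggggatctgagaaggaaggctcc

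Total expected counts, which are estimated read numbers, ran from 15167444 to 27806010 per library, and spike-ins held 4.78 to 14.6% of them. All 10 listed Purkinje markers, led by Pcp4 and Pcp2, reached 50 counts in all 12 libraries, as 3.72% of annotated genes did. The summed level of the Purkinje list was 17446 to 30669 TPM (a transcript's length-scaled share of the library, the deposited level). Markers of other cells were present too, with summed levels of 1478 to 4196 TPM for Bergmann glia and astrocytes (9 of 9 markers at a mean of at least 1 TPM, led by Slc1a3 and Hopx), 64.1 to 483 for granule cells (6 of 6, led by Gabra6 and Neurod1), 77.2 to 704 for interneurons and Golgi cells (5 of 8, mostly Npy, then Lgi2; Sst without a count) and 91.3 to 378 for oligodendrocytes (5 of 7, led by Cnp and Mbp). Microglial markers summed to 0 to 446 TPM (4 of 6, led by Ctss and Tyrobp) and vascular markers to 0 to 290 TPM (4 of 7, led by Ly6c1 and Vtn, with Cldn5 and Acta2 without a count). The vascular sum was highest in library 13, and the next was library 9 at 45.1 TPM. Of all annotated genes, 28.1% had a mean of at least 1 TPM. Of 7 markers of cerebellar nuclei neurons and unipolar brush cells, Slc17a6, Spp1, Lmx1a, Meis2, Lhx9 and Tbr1 had no count in any library, and Eomes reached 50 counts in 1 library. In a pooled sample, fewer cells of a type and less RNA per cell cannot be told apart.

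Of the family, 4 genes were read in every library and 1 in none. Nefh and Ina had the highest means, Nefm and Nefl lower ones, and Prph had no count. The 4 detected genes each had at least 50 counts in all 12 libraries, which 3.72% of the annotated genes did. Their summed level was 398 ± 85.3 TPM (SD, n = 12); library 4 was lowest at 285 and library 2 highest at 548.

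Nefh (ENSMUSG00000020396.8; mm10 chromosome 11, 4938754 to 4948064, minus strand, 4 exons), the heavy subunit, had the highest mean of the family. Its level ran from 51.9 TPM in library 6, through a median of 136, to 272 in library 9, with a mean of 138 ± 62.7 TPM (SD, n = 12). Library 9 stood well above the next, library 2 at 181 TPM, and 5 libraries lay between 159 and 181 TPM. By mean TPM the gene ranked 852 among all annotated genes.

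Ina (ENSMUSG00000034336.3; chromosome 19, 47014698 to 47025327, plus strand, 3 exons), which encodes alpha-internexin, had the lowest coefficient of variation (SD over mean) of TPM, 0.345. Scaled to spike-in counts it was 0.629, and that of Nefh, 0.477, was the lowest. Ina ran from 72.6 TPM in library 9 to 230 in library 6, with a median of 119.8 and a mean of 135 ± 46.4 TPM. The library lowest for Ina was thus the highest for Nefh, and the library highest for Ina was the lowest for Nefh.

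Nefm (ENSMUSG00000022054.7 in the tables; chromosome 14, 68082590 to 68124846 in GENCODE M21, minus strand, with 3 exons in its main transcript), the medium subunit, had the highest coefficient of variation of TPM, 0.845, whereas scaled to spike-in counts Nefl had the highest, 0.809 against 0.699. The lowest Nefm level was 9.43 TPM in library 13, its median 52.3 and its highest 202 in library 2, and the mean was 67.6 ± 57.1 TPM. Libraries 1, 11 and 13 were below 15 TPM, while libraries 2 and 12 together held 40.8% of the summed Nefm TPM. The expected counts behind these values ran up to 14536, and the lowest library still rested on 593 reads of the gene.

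Nefl (ENSMUSG00000022055.7; chromosome 14, 68083863 to 68089095, plus strand, 4 exons), the light subunit, had the lowest mean of the detected genes, although its median was above that of Nefm. It ran from 10.8 TPM in library 3, through a median of 63.3, to 104 in library 1, with a mean of 58.2 ± 26.0 TPM. Library 3 was far below the others, the next being library 8 at 27.1 TPM, and rested on 578 counts against 1729 or more elsewhere.

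Prph (ENSMUSG00000023484.9; chromosome 15, 99055174 to 99058978, plus strand, 8 exons), which encodes peripherin, had 0 counts in each of the 12 libraries, as did 60.8% of the annotated genes. A count of 0 allows up to 3 counts, or 0.0661 to 0.130 TPM depending on the library, and this limit covers counting error only. Against it, Nefl in library 3 was at least 101-fold higher, Nefm in library 13 at least 105-fold, Nefh in library 6 at least 518-fold and Ina in library 9 at least 727-fold, each being that gene's lowest ratio over the libraries.

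**Figure D1:**
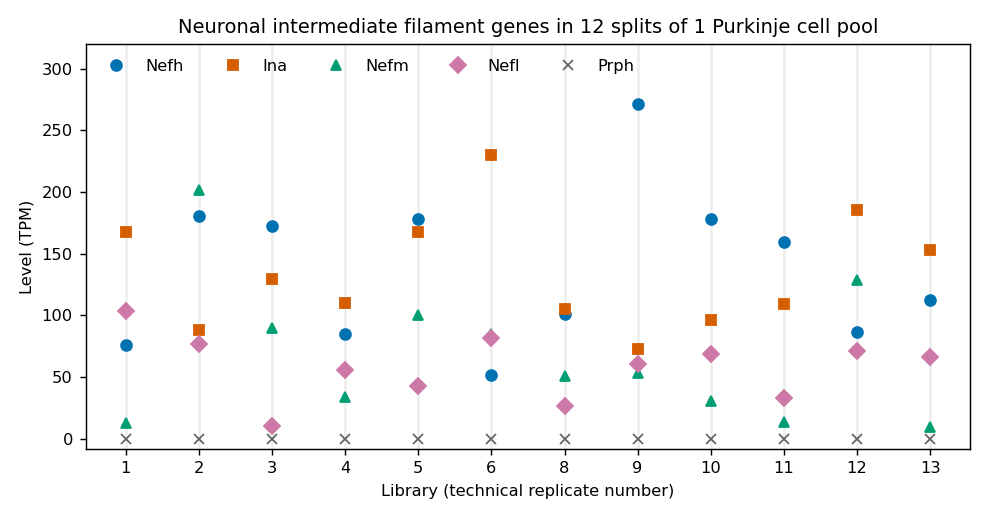
Level of each gene in TPM (vertical axis, linear) in each of the 12 libraries (horizontal axis), 1 symbol per gene and library. Nefh peaks in library 9 and Ina in library 6, Nefm ranges from 9.43 to 202 TPM, and Prph lies at 0 throughout.

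Which gene led differed between splits of the same lysate. Ina was highest in 6 libraries, Nefh in 5, Nefm in 1 and Nefl in none. At the other end, Nefm was the lowest of the 4 in 6 libraries, Nefl in 5 and Nefh in 1. The 4 genes fell into 8 different orders over the 12 libraries, and the most frequent order was found in 3.

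As shares of the summed family TPM, Nefh held 34.9 ± 13.8%, Ina 34.7 ± 11.1%, Nefm 15.5 ± 10.4% and Nefl 14.9 ± 6.74% (SD, n = 12). The Nefh share ran from 11.6% in library 6 to 59.3% in library 9, and the Ina share from 15.9% in library 9 to 51.3% in library 6. Nefm held 2.76% in library 13 and 36.9% in library 2, whereas Nefl held 2.69% in library 3 and 28.9% in library 1. Within the 3 neurofilament subunits alone, Nefh made up 52.3 ± 16.4%, Nefl 24.1 ± 13.7% and Nefm 23.6 ± 14.9%, and Nefh was the largest of these in 8 libraries.

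**Figure D2:**
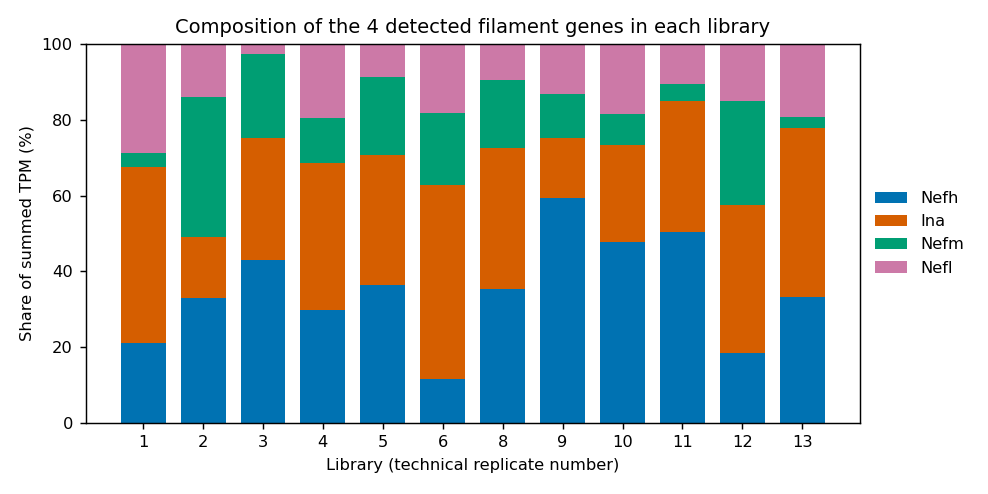
Share of each detected gene in the summed TPM of the family (vertical axis, percent) for each library (horizontal axis), as stacked bars that add up to 100%. Nefh takes from 11.6% (library 6) to 59.3% (library 9) and Nefl from 2.69% (library 3) to 28.9% (library 1).

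By measured TPM, the genes formed an upper and a lower couple, and neither couple could be split. Differences were taken within each library on the log2(TPM + 1) scale. They were tested with the two-sided exact sign-flip permutation test, adjusted by the Benjamini-Hochberg method over all 10 pairs of the family. A measurement bias of 1 gene that all 12 splits share does not enter these p-values and was not tested. Ina exceeded Nefl in 12 of 12 libraries, by 1.30 ± 0.91 (SD, n = 12, adjusted p = 0.000977). Ina exceeded Nefm in 11 of 12 by 1.43 ± 1.45 (adjusted p = 0.00837), the exception being library 2. Nefh exceeded Nefl in 10 of 12 by 1.27 ± 1.27 (adjusted p = 0.00837) and Nefm in 9 of 12 by 1.40 ± 1.44 (adjusted p = 0.00977).

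Within each couple the genes did not differ beyond their spread. Nefh against Ina gave −0.03 ± 1.09, with Nefh higher in 6 of 12 libraries (adjusted p = 0.920), and as TPM their ratio ran from 0.226 in library 6 to 3.74 in library 9. Nefm against Nefl gave −0.13 ± 1.72, with Nefm higher in 6 of 12 (adjusted p = 0.898), and the ratio ran from 0.121 in library 1 to 8.27 in library 3. Only 2 of the 12 libraries, 6 and 9, had Nefm and Nefl within 1.5-fold of each other, and the rest lay further apart in either direction. The sign of the Nefh and Ina difference turned without library 1, 6, 12 or 13 and that of Nefm and Nefl without library 1 or 13. The 4 pairs with Prph are no test, since a gene without a count could only be lower. Adjusted without them, over the 6 pairs of detected genes, the p-values of the 4 differences were 0.00293 for Ina against Nefl and 0.0117 for the others, a choice made after seeing the data.

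**Figure D3:**
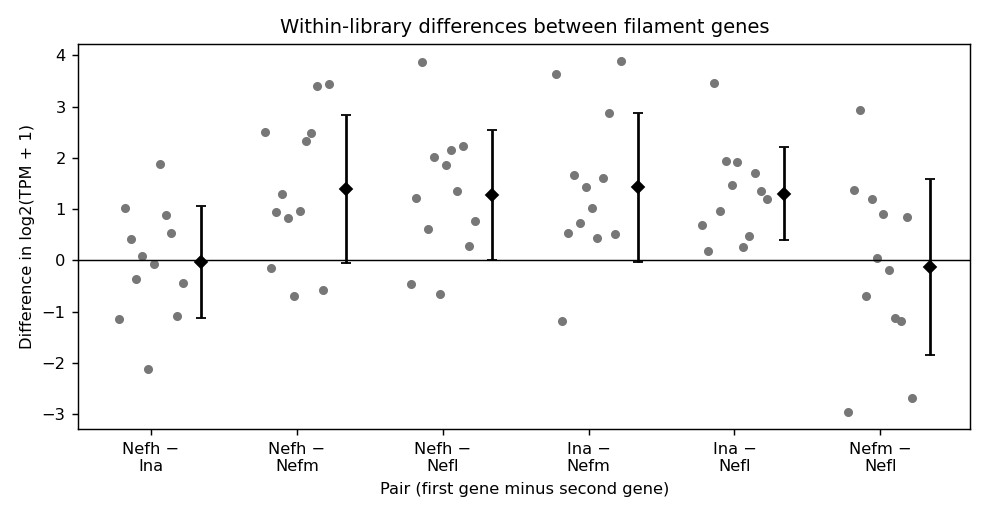
Within-library difference in log2(TPM + 1) (vertical axis, first gene minus second) for the 6 pairs of detected genes (horizontal axis), with a grey point per library in order of replicate number and a black diamond with a bar for the mean ± SD. Ina lies above Nefl in all 12 libraries, while Nefh against Ina and Nefm against Nefl spread to both sides of 0.

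As TPM, the detected genes were not shown to rise and fall together between libraries. With 12 libraries, this does not show that they varied independently. Of the 6 correlations between detected genes, the strongest was negative, Nefh with Ina. Its Pearson r was −0.735 (permutation p = 0.00691) and its Spearman rho −0.762 (p = 0.0057) over 12 libraries. Adjusted over the 14 relations computed, these p-values were 0.0967 for r and 0.0798 for rho, above the 0.05 threshold. Without the 2 libraries farthest from the Nefh median, r was −0.436 (adjusted p = 0.566), and with each block of replicate numbers (1 to 5, 6 to 10 and 11 to 13) centred on its mean it was −0.751 (adjusted p = 0.346). The relation passed without library 4 (r = −0.803, adjusted p = 0.0433) or library 5 (r = −0.843, adjusted p = 0.0185). TPM values are shares of 1 total, and the part of this in the r was not tested. With counts scaled to the library's gene counts (CPM), r was −0.726 (adjusted p = 0.112). With TPM taken over annotated nuclear genes it was −0.668 (adjusted p = 0.217). With counts scaled to the spike-ins in place of TPM, r was 0.0358 (adjusted p = 0.909). Nefh and Ina then share the spike-in count as divisor, and its part in the value of 0.0358 was not tested.

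None of the other pairs passed as TPM, but scaled to spike-in counts Nefl with Ina did (r = 0.776, adjusted p = 0.00664). Both genes share the spike-in count as divisor on that scale, and its part in this value was not tested. As TPM, the r of Nefl was −0.135 with Nefm, −0.338 with Nefh and 0.181 with Ina, and that of Nefm was 0.138 with Nefh and 0.007 with Ina. Their adjusted p-values ran from 0.584 to 0.983 (permutation tests, n = 12), and rho was 0 for Nefl with Nefm and 0.322 for Nefl with Ina. Leaving out the 2 libraries farthest on the first gene gave 0.105, −0.466, 0.259, −0.0744 and 0.311 in the same order, and centring the blocks gave −0.116, −0.335, 0.198, 0.112 and 0.0889.

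**Figure D4:**
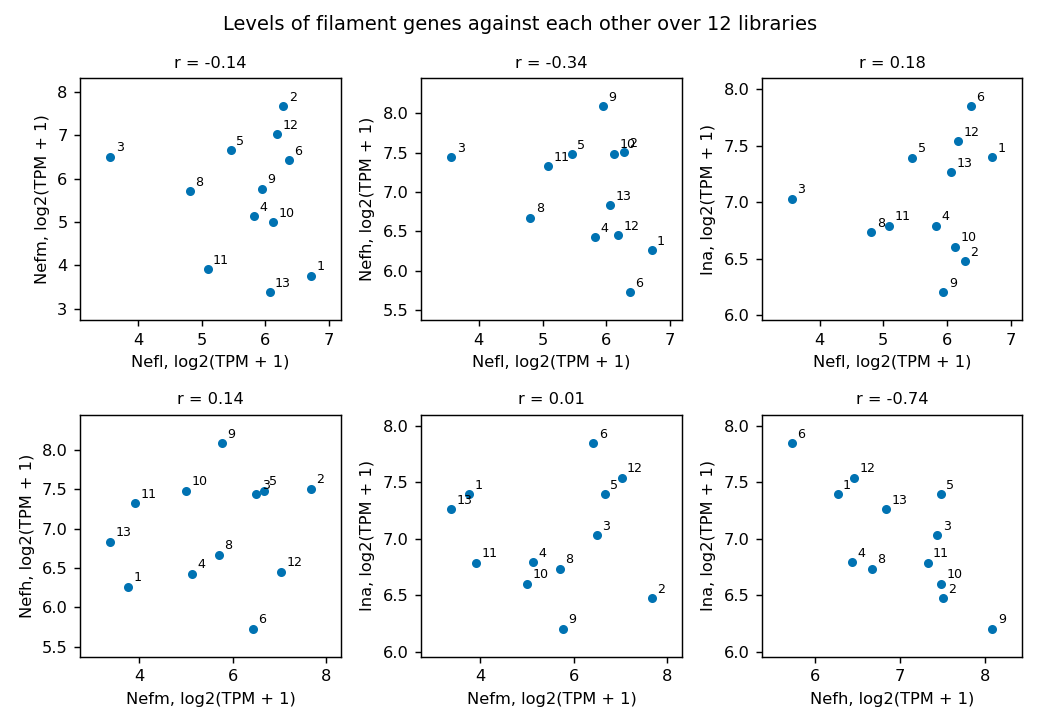
Levels of each pair of detected genes against each other in log2(TPM + 1) on both axes, with a point per library labelled with its replicate number and Pearson's r above each panel. Nefh and Ina gave r = −0.74 (permutation test, adjusted p = 0.0967), with libraries 6 and 9 at the ends, and the other pairs scatter. Without the 2 libraries farthest from the Nefh median, r was −0.436. Scaled to spike-ins, which is not drawn, r was 0.0358 for Nefh with Ina and 0.776 for Nefl with Ina.

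As TPM, the summed family level followed no measure of the libraries past the threshold. Scaled to spike-in counts, 5 of the 8 relations passed, with r of 0.837 for gene counts per spike-in count, 0.717 for genes detected, and 0.803, 0.826 and 0.872 for Purkinje, granule and oligodendrocyte markers (adjusted p from 0.00189 to 0.021, permutation tests). On that scale the family sum, the gene counts per spike-in count and the marker sums share the spike-in count as divisor. The part of this divisor in these values was not tested. As TPM, the r of the family sum was 0.302 with the Purkinje marker sum, 0.147 with granule markers and −0.382 with Bergmann glia and astrocyte markers. It was 0.607 with oligodendrocyte markers (unadjusted permutation p = 0.038, adjusted p = 0.266, rho 0.713, adjusted p = 0.0821). The other adjusted p-values ran from 0.503 to 0.983. The r was 0.024 with the total gene count, −0.324 with gene counts per spike-in count, −0.335 with the number of genes detected and −0.491 with the mitochondrial percentage. Without the 2 libraries farthest on the library measure, the 8 values ran from −0.555 (granule markers) to 0.547 (oligodendrocyte markers), none with an adjusted p below 0.566, and with the blocks centred from −0.527 to 0.624. Library 9, highest for Nefh, was also highest in the oligodendrocyte sum and in the interneuron and Golgi sum, at 378 and 704 TPM, and their part in the Nefh value was not tested.

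All 4 detected genes varied between libraries more than read sampling allows (chi-square test of the counts, adjusted p under 0.05), as did 99.9% of the 13899 genes tested. Beyond the spread of genes of their abundance none of the 4 was called by edgeR's quasi-likelihood dispersion test, whose calls took in 0.0144% of genes (2 genes). The F ratio of the dispersion to the trend was 1.37 for Nefm (adjusted p = 0.773), 0.97 for Nefh (0.781), 0.34 for Ina and 0.33 for Nefl (both 1). No member had an unadjusted p under 0.05, the lowest being 0.330 for Nefm. An absent call does not show that a gene varied as its neighbours did.

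As a description, the coefficient of variation (SD over mean, of the gene's share of the library's counts) was 0.868 for Nefm, above 89.6% of the 501 genes nearest in mean count, whose median was 0.620. Nefl went the other way, with 0.450 and only 10.8% of its 501 neighbours lower (median 0.666). Ina, at 0.329, was above 17.8% of its 501 neighbours, whose mean counts ran from 5278 to 44205.5. Nefh, at 0.458, was above 62.6% of 447 genes (median 0.414). That set took in every more abundant gene, with mean counts from 6006 to 480903 against 10260.5 for Nefh. It therefore does not hold only genes of like abundance, and by edgeR's F Nefh stood above 31.8% of all genes tested. By edgeR's F, Nefm stood above 65.0% of all genes tested and Nefl above 5.63%, and by the ratio of DESeq2's dispersion to its trend above 12.7% and 5.35%. DESeq2's trend was nearly flat over the detected genes, from 4.97 for Nefh to 5.00 for Nefl. Its percentages therefore do not compare genes of like abundance.

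**Figure D5:**
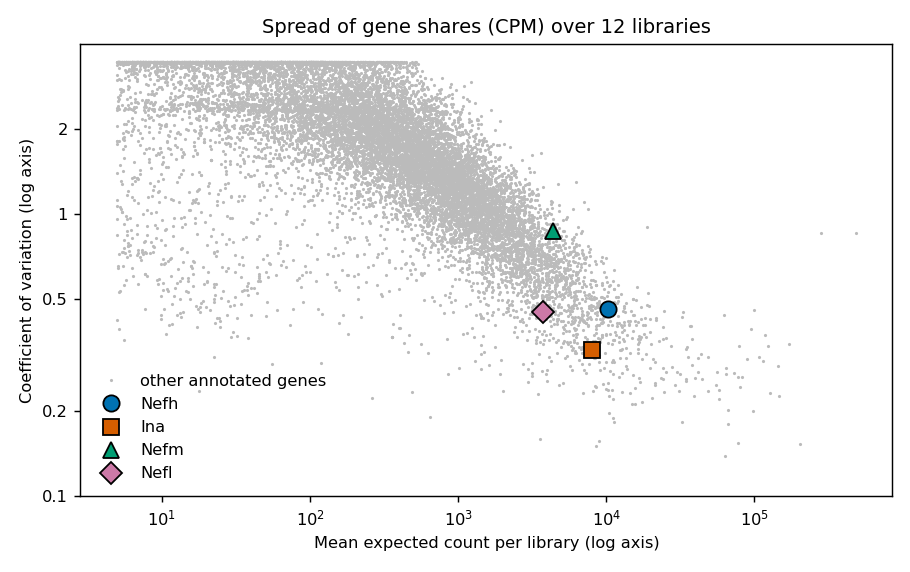
Coefficient of variation of the gene's share of library counts (vertical axis, log scale) against the mean expected count per library (horizontal axis, log scale), with a grey point for each gene with a mean count of at least 5 and large symbols for the 4 detected genes. Nefm (0.868) lies above 89.6% of the 501 genes nearest in mean count, and Nefl (0.450) and Ina (0.329) lie low in the cloud.

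Nefl and Nefm are neighbours on chromosome 14, on opposite strands. The shorter Nefm transcript ends 30187 bases beyond the end of Nefl and shares no exonic base with it. A longer Nefm transcript reaches past Nefl and, in GENCODE M21, overlaps 1108 exonic bases of Nefl on the other strand, or 32.8% of the exonic bases of Nefl. The strand of the libraries is not given in the sources used here, so reads in that overlap cannot be assigned to a gene with certainty. In the deposited transcript tables the longer transcript had reads in 1 library only, library 5, with 121 counts or 2.51% of the Nefm TPM, and all other Nefm reads were given to the shorter transcript. Nefl, Nefh and Ina have 1 transcript each in the tables, and both Prph transcripts had no count.

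The genes whose levels most resembled each member over the 12 libraries were taken by Pearson's r of log2(TPM + 1) among 3003 genes with a mean of at least 10 TPM and 50 counts in at least 10 libraries. With so many genes and 12 libraries, high values are to be found for any gene, and they are given as a description. Among the 3 genes nearest to Ina were Brcc3 (r = 0.800, rho = 0.853) and Arl4a (r = 0.768, rho = 0.748). Nefm was closest to Gm26825 (r = 0.899, rho = 0.874), Lars2, the mitochondrial leucyl-tRNA synthetase (r = 0.827), and Aldoa, a glycolytic aldolase (r = 0.820). For Nefh the nearest were Aldh1a1, a retinaldehyde dehydrogenase (r = 0.816), Sgcb, a sarcoglycan (r = 0.782), and Fkbp3 (r = 0.770). For Nefl they were Kdelr2, a receptor that returns proteins to the endoplasmic reticulum, Actr3, a subunit of the actin-nucleating Arp2/3 complex, and Sgpp1, with r of 0.913, 0.858 and 0.836 but rho of 0.622, 0.476 and 0.655. Of the genes compared, 0.166% had a lower r with Ina than Nefh had.

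Among other intermediate filament genes, vimentin (Vim), the filament of glia, endothelium and immature cells, was the only one with 50 counts in every library. It ran from 25.5 TPM in library 3, through a median of 166, to 632 in library 9, with a mean of 196 ± 180 TPM. Vim lay above Nefh in 5 of 12 libraries and above Ina in 6. Of the 16 listed genes that were matched, 7 had a mean of at least 1 TPM, against 28.1% of all annotated genes. The nuclear lamin gene Lmna averaged 10.2 ± 23.0 TPM, the lens filament gene Bfsp2 5.38 ± 18.7, with all of it in 1 library, Iffo1 4.62 ± 9.00 and the lamin gene Lmnb1 0.0833 ± 0.289, while Nes, Des, Krt8, Krt18, Krt19 and Bfsp1 had no count. Nefl, Nefm, Nefh and Ina were thus counted in every split, as was 1 of these 16 relatives.

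Genes that link neurofilaments to other structures or move them were nearly all present. Of 15 such genes, 13 had a mean of at least 1 TPM (28.1% of annotated genes) and 12 a count in every library (8.46%). Dynll1, a dynein light chain, stood at 622 ± 366 TPM, the cytolinker Macf1 at 92.6 ± 40.9, the kinesin light chain Klc1 at 88.7 ± 57.7 and the kinesin heavy chain Kif5b at 61.4 ± 37.3. The cytolinker Dst was at 32.6 ± 20.5 TPM, and Kif5a, the motor chiefly tied to neurofilament transport, at 31.8 ± 18.1. Plec, the cytolinker plectin, averaged 7.77 ± 11.2, and the epithelial plakins Ppl and Evpl had no count.

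All 26 listed kinases and phosphatases that act on neurofilaments had a mean of at least 1 TPM (28.1% of annotated genes), and 13 had a count in every library (8.46%). The phosphatase subunits Ppp2r1a and Ppp1ca led at 163 ± 68.7 and 149 ± 131 TPM, followed by the kinases Csnk2a1 at 91.2 ± 38.0 and Camk2b at 72.4 ± 35.7. Of the kinases of the tail motifs, Gsk3b stood at 70.9 ± 27.4 TPM and Cdk5 at 67.5 ± 69.2, the latter from 0 to 221 TPM. Of the Cdk5 activators, Cdk5r2 was the lowest of the list at 2.36 ± 5.77, and Cdk5r1 stood at 19.0 ± 17.5 TPM.

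In the list for turnover and RNA binding, 10 of 13 matched genes had a mean of at least 1 TPM (28.1% of annotated genes) and 8 a count in every library (8.46%). It was led by the superoxide dismutase Sod1 at 1193 ± 446 TPM, the RNA-binding protein Tardbp at 119 ± 111, the ubiquitin ligase Stub1 at 118 ± 90.6 and the small heat shock protein Cryab at 98.1 ± 96.5. Trim2, a ubiquitin ligase of the light subunit, stood at 33.2 ± 16.4 TPM with 50 counts in every library. By contrast Arhgef28, which binds Nefl mRNA, averaged 0.0025 ± 0.00866 TPM, and the small heat shock gene Hspb1 had no count.

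All 18 genes of a list of other neuronal and microtubule genes had a mean of at least 1 TPM (28.1% of annotated genes), and 16 had a count in every library (8.46%). Stmn3 and Stmn2, which bind tubulin, stood at 1039 ± 303 and 452 ± 158 TPM, and the tubulins Tuba1a and Tubb2a at 364 ± 199 and 268 ± 181. Sncg, gamma-synuclein, was lowest at 1.83 ± 4.43 TPM. The median of the mean levels was 128 TPM in this list, 34.1 among linkers and motors, 26.6 among kinases and phosphatases, 37.9 in the turnover list and 0.284 among other intermediate filaments, against 67.6 in the neurofilament family and 0 over all annotated genes.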

How the data were processed

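A Smart-seq protocol is named for the 12 libraries, per the labels' protocols, and reads were quantified on mm10 with GENCODE M4, per the text deposited with each sample; for the aligner, quantification program and strand the answer is: not given in the sources used here. The deposited tables hold expected counts (estimated reads per gene or transcript, shared reads split) and TPM, which the authors scaled to 1 total per library over all features, spike-ins included (per the file headers and the sums of the values). The percent of a gene's TPM held by each transcript is also the authors' deposited value. Symbols came from GENCODE M21 and matched 42462 of 43346 gene identifiers; 153 of the 155 genes in the lists matched, and Eppk1 and Oga did not. The Lys-Ser-Pro runs were counted in the M21 transcript sequences, in the longest coding sequence of each gene. Protein sequences were not used here, so the planned protein comparison was replaced by these codon counts.

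Expected counts were rounded for the chi-square and edgeR 4.0.16 tests (TMM, intercept only, upper-tail F of the quasi-dispersion against the trend). Both were run on the 13899 genes averaging 5 counts or more. In a check on simulated data, the edgeR test missed most genes given a raised dispersion. Permutation tests used 4096 sign patterns or 100000 resamples, two-sided. No 2 libraries agreed within sampling noise (chi-square per degree of freedom of at least 560 in 66 pairs). PCR reads without molecular identifiers are not independent molecules.

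The members and lists were chosen with earlier results of these data known. The text names the members, the 4 highest, the lowest measured and the undetected genes of each list (the 2 highest and the undetected of each marker list) and the 3 genes most like each member. Dst, Kif5a, Gsk3b, Cdk5, Cdk5r1 and Trim2 were chosen after their values were seen. Of the genes this rule names, 1 is not reported here.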

Additional observations from a re-analysis of the deposited data

How the results depend on the processing

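Other units and pseudocounts, a minimum count of 50 and each library left out kept the direction and call of the 4 pairs of detected genes that passed, as did adjustment over the 6 such pairs. The other 2, Nefh against Ina and Nefm against Nefl, did not pass in any of these settings: Nefh against Ina turned to 0.28 as CPM (adjusted p = 0.444) and ran from −0.21 to 0.16 with 1 library left out, and Nefm against Nefl from −0.40 to 0.13.

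The relations depended most on scaling. With counts per 1000 spike-in counts, r turned to 0.0358 for Nefh with Ina, 0.295 for Nefl with Nefh, −0.229 for Nefm with Nefh and −0.162 for Nefm with Ina. Nefl with Ina passed (0.776, adjusted p = 0.00664). The pseudocount stayed at 1, and its part in these values was not tested. Detected genes ran from 0.232 (Nefl, library 3) to 10.6 (Nefh, library 9) on the spike-in scale. On that scale the summed family passed with gene counts per spike-in count (0.837, adjusted p = 0.00189) and genes detected (0.717, 0.021), both turned, and with Purkinje (0.803, 0.00664), granule (0.826, 0.00625) and oligodendrocyte markers (0.872, 0.00189). Total gene count (−0.144), mitochondrial percentage (0.417) and Bergmann and astrocyte markers (0.621, adjusted p = 0.0573) turned without passing. The single genes, the family and marker sums and the gene counts per spike-in count share the spike-in count as divisor. The part of this divisor in these values was not tested. As CPM, the summed family with granule markers turned to −0.0784.

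Without the 2 libraries farthest on the first gene or the library measure, r turned for Nefl with Nefm (0.105), Nefm with Nefh (−0.0744) and the summed family with total gene count (−0.13), genes detected (0.0775), Purkinje (−0.000602) and granule markers (−0.555). With 1 library left out, r ran from −0.843 to −0.615 for Nefh with Ina, −0.276 to 0.0492 for Nefl with Nefm, −0.122 to 0.208 for Nefm with Ina, and for the summed family −0.124 to 0.199 with total gene count and −0.115 to 0.374 with granule markers. For none of these reversals was the cause tested.

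The coefficient of variation was 0.446 for Nefl as TPM and 0.809 on the spike-in scale, 0.345 and 0.629 for Ina, 0.845 and 0.699 for Nefm and 0.455 and 0.477 for Nefh, so the order of the genes differed. The genes called by edgeR numbered 1 or 2 with a library left out (1 without library 1), and no member was called. DESeq2 dispersions of the 4 detected genes lay below its trend, at 0.0217 to 0.166 of it. That trend hardly changed between these genes, from 4.97 for Nefh to 5.00 for Nefl. The ratios therefore do not show that the genes varied less than others of their abundance. Each detected gene had at least 578 counts per library, and a Prph level under 3 counts would not be seen.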
